A study of Mus musculus with 11 samples.

Results

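The keratins and the proteins of the cornified envelope are described here in 11 mouse skin tumour libraries. Members were all rows of the gene count table whose mouse symbol is a numbered Krt gene, an Lce gene or an Sprr gene, together with Lor, Flg, Flg2, Ivl, Hrnr, Crnn, Tchh and Rptn. These were 88 of 18756 mouse genes, carrying 86 symbols because 3 rows bear the symbol Flg. They comprise 49 keratins and 39 cornified envelope genes. The libraries were made from total RNA of end-point tumours of a genetically engineered C57BL/6 melanoma model. GNA11 Q209L tumours (2 libraries) carry an activating change of a G protein alpha subunit that is known from uveal melanoma. GNA11 Q209L Bap1 KO tumours (5 libraries) add loss of Bap1, a nuclear deubiquitinase and tumour suppressor, and BRAF V600E Bap1 KO tumours (4 libraries) pair that loss with the common BRAF change of cutaneous melanoma. Bap1 KO is thus shared by 2 of the 3 genotypes, and the oncogene by the first and second. The table gives BAP1 F/F for the knockout libraries, but its last header line gives NA for BRAF V600E Bap1 KO replicates 2 and 4. The sources used here do not give the Cre driver, the animals' age and sex, or the body site. Libraries are called GNA11, GNA11 Bap1 KO and BRAF Bap1 KO below, with replicate numbers in deposition order that pair nothing, and "any GNA11 library" covers both Bap1 genotypes. Replicates 1 and 2 of GNA11 Bap1 KO share an identifier in the labels and may come from 1 animal, and p-values measure only the spread between these libraries.

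Total counts ran from 18338082 to 81035135 per library. A count of 3, taken as the least that can be told from 0, corresponded to 0.0337 to 0.166 CPM (counts scaled to a common library size, after TMM scaling), and this floor covers counting error only. Human BRAF transgene exon counts were 43 to 81 in each BRAF library and at most 1 in any GNA11 library. Bap1 itself ran from 54.7 to 71.3 CPM in the BRAF libraries, from 101 to 170 CPM in GNA11 Bap1 KO and from 85 to 137 CPM in GNA11, and a gene total checks a knockout only through the deleted exons, whose counts were not analysed here. The 9 melanocyte markers summed to between 67309 and 100811 CPM in the GNA11 libraries, with and without Bap1, and to between 50.7 and 655 CPM in the BRAF libraries. Of the 9, all but Sox10 were at 52.1 CPM or below in every BRAF library. Sox10, a transcription factor of neural crest and melanocytes, was at 1.93, 3.58, 533 and 232 CPM in BRAF Bap1 KO and between 527 and 2101 CPM in the GNA11 libraries, and it did not pass the test against either GNA11 genotype (edgeR adjusted p = 0.116 with Bap1 KO and 0.268 without).

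Keratins are the intermediate filament proteins of epithelia and are built from pairs of a type I and a type II chain, so the pairs that are transcribed mark the kind and layer of an epithelium. In skin, basal cells of the epidermis make Krt5 and Krt14 and switch to Krt1 and Krt10 as they move up. Simple epithelia make Krt8 and Krt18, and the hair follicle has separate sets for its inner root sheath and its hair shaft. In the last step, loricrin, involucrin, filaggrins, late cornified envelope (Lce) proteins and small proline-rich (Sprr) proteins are crosslinked beneath the membrane of the dying keratinocyte. These genes are read here as markers of epithelium, although a bulk sample does not show which cells made a transcript. Krt80 was at 10.1 CPM or more in every GNA11 library, where melanocyte markers were high. Which cells made it was not tested. In a bulk sample, fewer cells of a type and less RNA per cell cannot be told apart.

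Promoter sequence, which the choice of members did not use, differed between the families. Of the 86 symbols, 68 matched the RefSeq promoter table (GRCm38.p6), which holds 250 bases before and 50 after each start, and the first start listed was read. Keratins without a match, whose promoters were not read, include Krt1, Krt15 and the wound and appendage keratins Krt6a, Krt6b, Krt16 and Krt17. The letters TATAAA lay within the 40 bases before the start, on the gene's strand, in 28 of 68 members (41.2%), in 14 of 33 keratins, in 7 of 10 Sprr genes and in 2 of 17 Lce genes (11.8%), against 2.55% of all 27025 promoters. The letters TGACTCA, the binding site of the AP-1 factors, occurred on either strand of the 300 bases in 7 of 10 Sprr promoters, in those of Ivl and Lor, in 0 of 33 keratin promoters and in 0 of 17 Lce promoters, against 5.17% of all promoters. The motifs do not overlap each other. The following stretches end at the base before the start, and capitals mark TATAAA and TGACTCA or its reverse complement. They show a keratin of the epidermis, of the inner root sheath and of simple epithelia, each high in a different tumour library, and then 5 envelope genes with both motifs.
Krt10, chr11:99389365-99389424, minus strand: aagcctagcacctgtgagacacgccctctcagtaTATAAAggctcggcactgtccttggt
Krt71, chr15:101743098-101743157, minus strand: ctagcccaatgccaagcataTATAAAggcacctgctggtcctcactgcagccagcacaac
Krt20, chr11:99438154-99438213, minus strand: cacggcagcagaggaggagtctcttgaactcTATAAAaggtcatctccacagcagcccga
Lor, chr3:92083143-92083202, minus strand: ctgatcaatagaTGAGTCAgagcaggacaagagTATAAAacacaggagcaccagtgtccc
Ivl, chr3:92573736-92573865, minus strand: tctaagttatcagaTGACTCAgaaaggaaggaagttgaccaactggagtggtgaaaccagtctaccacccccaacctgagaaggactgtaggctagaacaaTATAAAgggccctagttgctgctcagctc
Sprr1a, chr3:92485882-92486031, minus strand: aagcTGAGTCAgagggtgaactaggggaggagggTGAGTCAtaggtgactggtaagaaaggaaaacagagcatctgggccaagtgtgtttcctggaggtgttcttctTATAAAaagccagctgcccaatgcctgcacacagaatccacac
Sprr2d, chr3:92338940-92339139, plus strand: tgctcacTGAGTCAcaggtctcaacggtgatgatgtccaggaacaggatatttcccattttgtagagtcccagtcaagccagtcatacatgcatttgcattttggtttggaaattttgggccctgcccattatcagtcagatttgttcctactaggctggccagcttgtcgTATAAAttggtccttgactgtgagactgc
Sprr2h, chr3:92385485-92385684, plus strand: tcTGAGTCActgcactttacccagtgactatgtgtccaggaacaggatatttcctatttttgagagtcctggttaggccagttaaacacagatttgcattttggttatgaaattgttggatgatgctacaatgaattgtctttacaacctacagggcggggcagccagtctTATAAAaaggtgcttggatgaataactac
In Sprr1a TATAAA begins 43 bases before the start and TGAGTCA occurs in 2 copies, while in Sprr2d and Sprr2h the AP-1 letters begin 193 and 198 bases before it. A match is a description of the letters and no evidence of binding.

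The keratins present differed from tumour to tumour, within a genotype as well as between genotypes. Members took 2.39% of all counts in BRAF Bap1 KO replicate 3, 2.04% in replicate 4, 0.0926% in replicate 2 and 0.0439% in replicate 1. In the GNA11 Bap1 KO tumours they took 0.288% in replicate 1, and between 0.00198% and 0.00354% in the 6 other GNA11 libraries of either Bap1 genotype. Levels of different genes were compared as CPM per kb of exon, using GENCODE vM21 lengths that 84 of the 88 rows had. On that scale suprabasal keratins made up 58.3% of the keratin level in BRAF Bap1 KO replicate 3, inner root sheath and companion keratins 43.6% in replicate 4, and simple epithelial keratins 47.9% in replicate 1. Replicate 2 of the same genotype held 31% basal and 29% simple epithelial keratin. GNA11 Bap1 KO replicate 1 held 44.8% basal and 44% wound and appendage keratin. The other GNA11 libraries had so few keratin counts, between 352 and 1920 per library, that their shares rest on a handful of genes, chiefly Krt80.

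**Figure D1:**
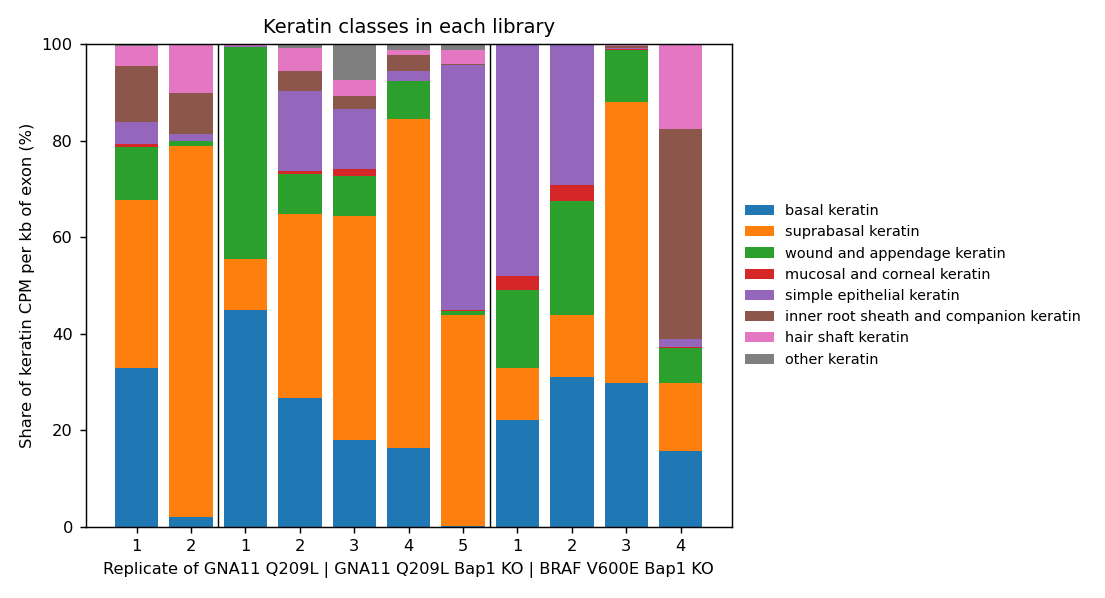
Share of the summed keratin CPM per kb of exon (%) taken by each of 8 keratin classes, 1 bar per library, with vertical lines between the genotypes. In BRAF Bap1 KO the leading class is simple epithelial in replicate 1, basal in replicate 2, suprabasal in replicate 3, and inner root sheath and companion in replicate 4, while basal and wound keratins fill most of GNA11 Bap1 KO replicate 1.

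Between genotypes, the members were lower in GNA11 Bap1 KO than in BRAF Bap1 KO. Of 85 members that passed the expression filter, 55 were called lower and 0 higher (64.7%, edgeR adjusted p under 0.05), against a background of 24.7% of all 17350 genes called lower and 41.2% called in either direction. The filter dropped Krt4, Krt9 and Krt74, and a member that passed it only through a tumour where it was high counts among the 85. By class, the calls took 7 of 7 inner root sheath and companion keratins, 12 of 14 hair shaft keratins, 14 of 18 Lce genes, 7 of 8 filaggrin family rows, 4 of 7 suprabasal and 4 of 6 simple keratins. They took 1 of 3 basal keratins, 1 of 11 Sprr genes and 0 of 4 wound and appendage keratins, of which 0 had an unadjusted p under 0.05 (51.3% of all genes). The groups did not overlap for 20 of 85 members, all lower in GNA11 Bap1 KO, against 17.2% of all genes lower in this way. These were 4 of 46 tested keratins, a smaller share than among all genes, and 16 of 39 envelope genes, a larger one. The median log2 fold change over members was -7.11, and -0.26 over all genes.

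The hair and root sheath calls rested on BRAF Bap1 KO replicates 3 and 4. Without replicate 3 the calls came to 34 of 60 tested members, and without replicate 4 to 34 of 66. Of all genes, 35.4% and 34.4% were called in either direction in those fits. The member calls held 1 and 0 hair shaft keratins, and 2 root sheath keratins in either case. The hair shaft call kept without replicate 3 was Krt83, which lost its call without replicate 4. The other hair shaft keratins called with all libraries failed the expression filter in both fits, so they were not tested there. Krt71 and Krt75 kept their calls, and the other root sheath keratins also failed the filter. Without GNA11 Bap1 KO replicate 1 the count was 64 of 79 tested, against 35.8% of all genes called in either direction. In that fit 18 members were called that had not been, including Krt5, Krt14, Krt1, Krt10 and all 4 wound keratins. Without the BRAF libraries given NA for Bap1, replicates 2 and 4, 19 of 54 tested members were called, against 22% of all genes in either direction. DESeq2 gave an adjusted p for 53 members and called 34 lower (27.8% of all genes with one), with 31 of them among the 55. Limma voom called 20 of 85 lower (18% of all genes), with 11 of them among the 55. EdgeR on the 2 genotypes alone called 22 of 35 tested, against 40.6% of all genes in either direction. No called member changed sign under any of these settings in which it was fitted. With a filtered-out member taken as not called, 28 of 55 were called in all 11 fits that left out 1 library. Of those, Krt23, Krt79, Lor, Ivl, Hrnr, Lce1f and 1 Flg row were called in all 7 other settings too.

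**Figure D2:**
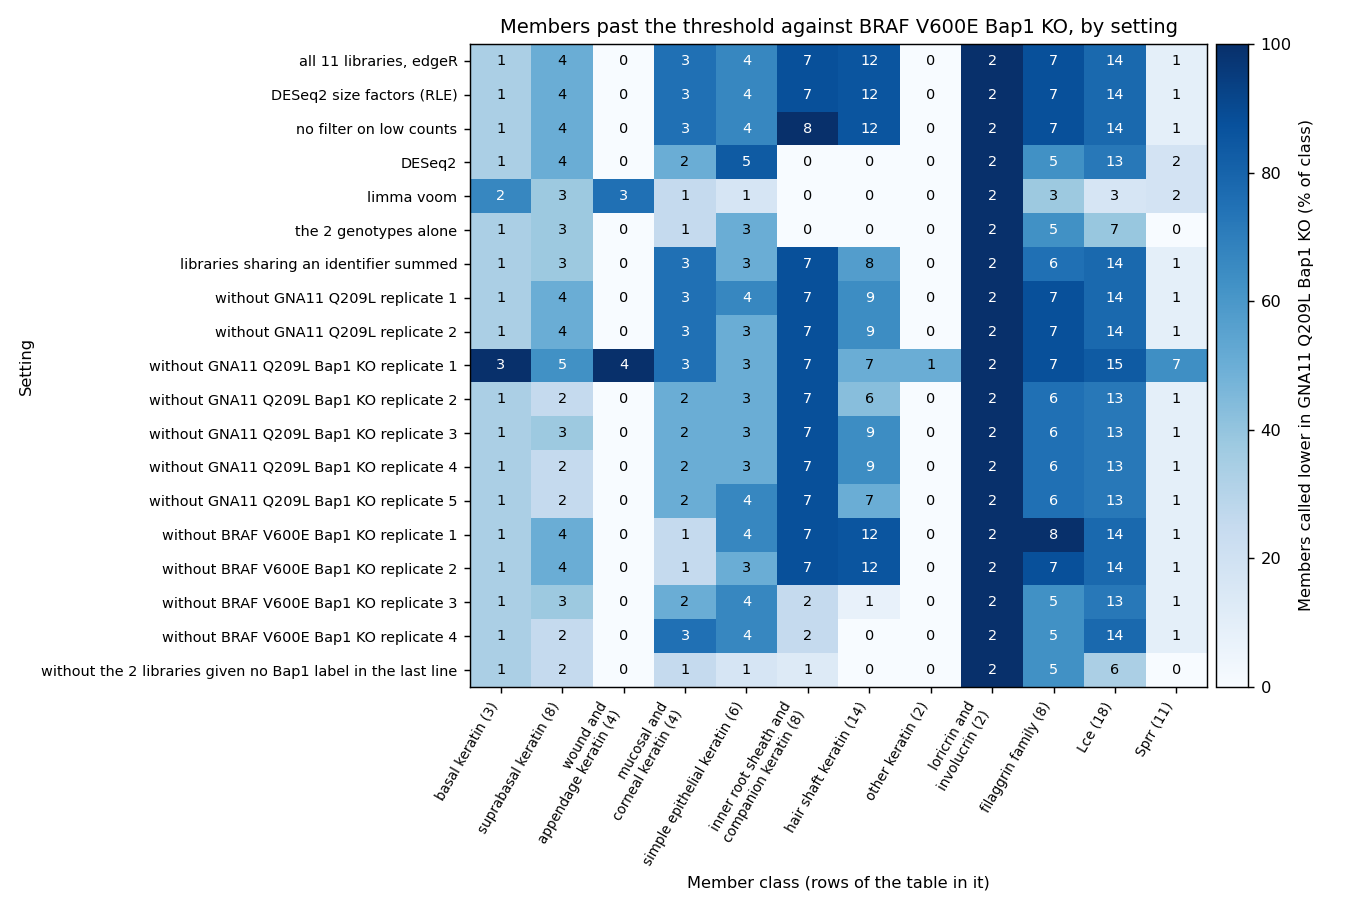
Number of members called lower in GNA11 Bap1 KO than in BRAF Bap1 KO (figures in the cells) in each class (columns, with class size) under each setting (rows), with colour giving the percent of the class. DESeq2 gave no adjusted p for the root sheath and hair shaft keratins. With BRAF Bap1 KO replicate 3 or 4 left out, hair shaft calls number 1 or 0. Of the 12, all but Krt83 failed the expression filter in those fits and were not tested. The 4 wound keratins are called only with limma voom (3 of 4) or without GNA11 Bap1 KO replicate 1 (4 of 4).

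GNA11 tumours with Bap1 also lay below the BRAF tumours. Of 85 members, 18 were called lower and 0 higher (21.2%), against 5.93% of all genes called lower and 15.2% called in either direction. The groups did not overlap for 55 of the 85 members, against 22.9% of all genes lower in this way. This comparison shares its BRAF libraries with the one above and is no separate evidence. The called members were Krt15, Krt79, Krt12, Krt8, Krt18, Krt23, Lor, Ivl, Flg2, 1 Flg row and 8 Lce1 genes, and none was called in all fits that left out 1 library. The calls did not hold when either GNA11 replicate was left out, which leaves 1 library of that genotype. DESeq2 called 45 (18.3% of all genes lower) and limma voom 0 (5.2%). With limma voom 7 of 85 members were at an unadjusted p under 0.05, against 5733 of 17350 genes. Of the 85 members, 42 had no count in 1 of the genotypes. The median log2 fold change was -10.02 as fitted and -8.43 with those genes at a bound set by 3 counts over the group, against -0.23 over all genes.

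Loss of Bap1 in GNA11 tumours moved no member past the threshold. Of 85 members, 0 were called, against 5 of 17350 genes (0.0288%), and 2 members were at an unadjusted p under 0.05 (11.4% of all genes). Limma voom called 0 (0.00576% higher among all genes), with 0 at an unadjusted p under 0.05, against 1648 of 17350 genes. With 2 libraries against 5 and so few genes called, the test cannot show that the members were unchanged. DESeq2 called 5 members higher in GNA11 Bap1 KO, against 1.39% of all genes (Krt1, Krt14, Krt6a, Rptn and Sprr2h). For each of these 5, GNA11 Bap1 KO replicate 1 held nearly all of the genotype's counts: Krt14 was at 785 CPM there and at 1.27 CPM or below in the other replicates. The median log2 fold change over members was 3.63 as fitted, with 64 members positive and 18 negative. With a bound set by 3 counts it was 1.40, against -0.01 over all genes. Replicate 1 was the highest of its genotype for 60 of 88 members.

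**Figure D3:**
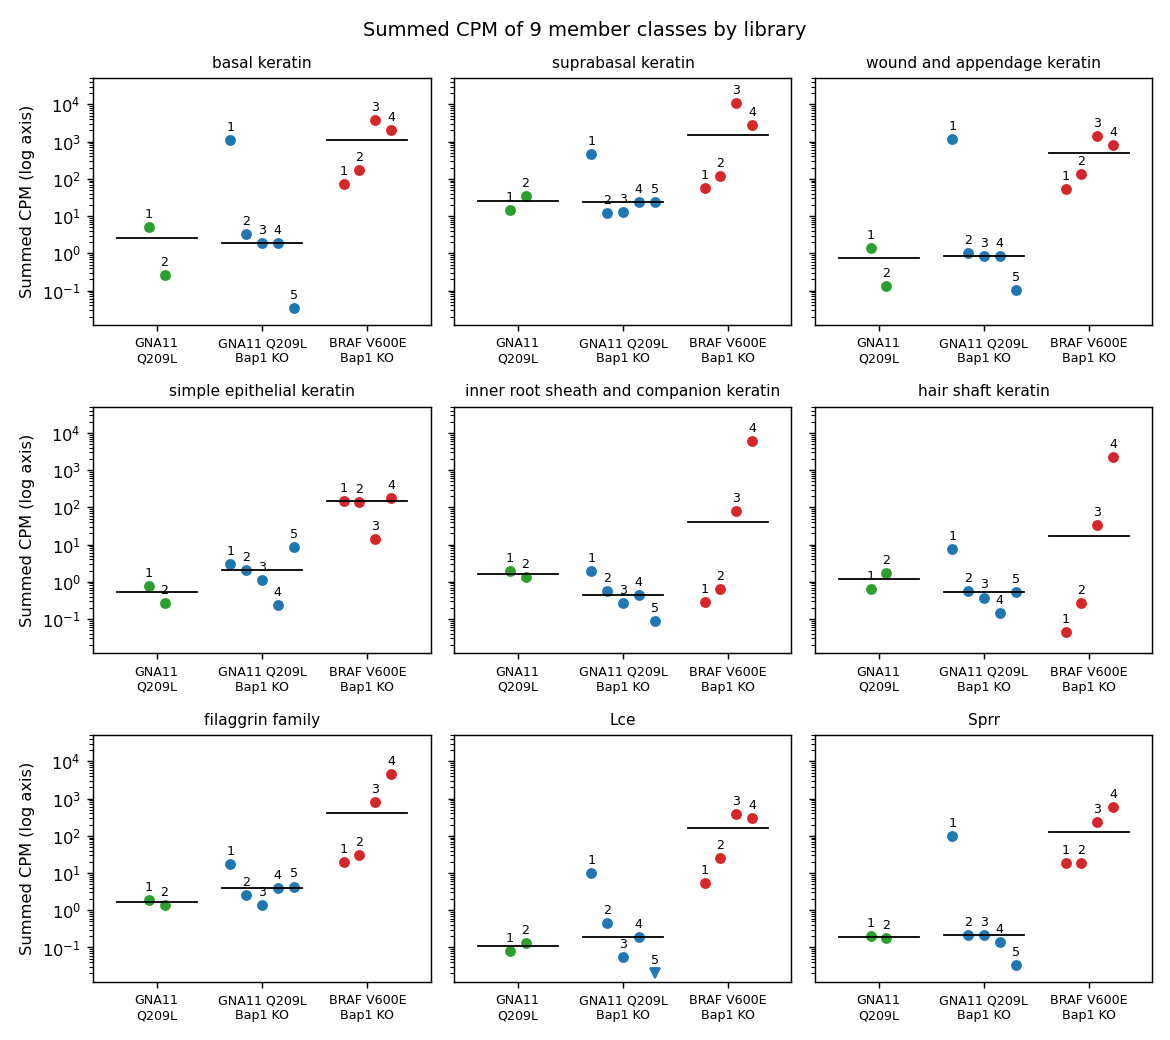
Summed CPM (log axis) of 9 member classes, 1 point per library labelled with its replicate number, black lines at genotype medians, and a triangle for a sum of 0 drawn at the bottom. GNA11 Bap1 KO replicate 1 stands above the other GNA11 libraries for basal, suprabasal, wound, hair shaft, filaggrin, Lce and Sprr sums, and BRAF Bap1 KO replicate 4 stands above the rest for root sheath and hair shaft sums.

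Basal keratins were high in BRAF Bap1 KO replicates 3 and 4 and in GNA11 Bap1 KO replicate 1. Krt14, the type I chain of basal keratinocytes, was at 1.02 and 0.223 CPM in GNA11, at 785, 1.27, 0.865, 0.714 and 0.0346 CPM in GNA11 Bap1 KO, and at 43.6, 101, 2194 and 629 CPM in BRAF Bap1 KO. Krt5, its type II partner, was at 3.37 and 0 CPM in GNA11, at 314, 1.66, 0.703, 0.999 and 0 CPM in GNA11 Bap1 KO, and at 27.9, 61.5, 1594 and 1054 CPM in BRAF Bap1 KO. For both, 4 of the 5 GNA11 Bap1 KO libraries lay below all BRAF libraries and replicate 1 lay among them. Neither passed the test against BRAF Bap1 KO (Krt14 log2 fold change -2.24 ± 2.15 (SE), edgeR adjusted p = 0.419). Without replicate 1 the Krt14 difference was -10.00 ± 1.69 (SE), edgeR adjusted p = 0.0037. Krt15, a basal keratin enriched in the stem cell bulge of the hair follicle, behaved otherwise. It was at 0.549 and 0.0446 CPM in GNA11, at 0.597, 0.332, 0.27, 0.19 and 0 CPM in GNA11 Bap1 KO, and at 1.85, 9.33, 63.5 and 429 CPM in BRAF Bap1 KO, so the genotypes did not overlap and replicate 1 of GNA11 Bap1 KO lay near its group. The log2 fold change against BRAF Bap1 KO was -8.94 ± 1.72 (SE, edgeR adjusted p = 0.00375).

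Suprabasal keratins reached their highest sum in BRAF Bap1 KO replicate 3, at 11096 CPM, against 2874 CPM in replicate 4, 57 and 118 CPM in replicates 1 and 2, and 465 CPM in GNA11 Bap1 KO replicate 1. Relative to the basal keratins of the same library, the suprabasal sum was 2.88 in BRAF Bap1 KO replicate 3, 1.36 in replicate 4, 0.777 and 0.684 in replicates 1 and 2, and 0.423 in GNA11 Bap1 KO replicate 1. In BRAF Bap1 KO replicate 4 the sum held 915 CPM of Krt77, 370 CPM of Krt80 and 316 CPM of Krt79. These stood beside 933 CPM of Krt10 and 322 CPM of Krt1, so its ratio does not follow Krt1 and Krt10 alone. Krt10, the type I chain of the spinous layer, was at 25.4, 45, 4260 and 933 CPM in BRAF Bap1 KO, at 136, 0.884, 1.03, 0.714 and 0.0864 CPM in GNA11 Bap1 KO, and at 0.785 and 0.579 CPM in GNA11. Krt1, its partner, was at 17.4, 31.1, 4087 and 322 CPM in BRAF Bap1 KO, at 288, 0.332, 0.216, 0.285 and 0 CPM in GNA11 Bap1 KO, and had no count in either GNA11 library. Both were highest in BRAF Bap1 KO replicate 3, then in replicate 4, then in GNA11 Bap1 KO replicate 1, as Krt5 was, whereas Krt14 was higher in GNA11 Bap1 KO replicate 1 than in BRAF Bap1 KO replicate 4.

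Krt2, a keratin of the upper spinous and granular layers, was high in a single tumour. It was at 2494 CPM in BRAF Bap1 KO replicate 3, at 1.18 CPM in replicate 4 and at 0.0449 and 0.0681 CPM in replicates 1 and 2. It was at 13.3 CPM in GNA11 Bap1 KO replicate 1, without a count in the other 4 of that genotype, and at 0.0523 and 0 CPM in GNA11. Krt77, a suprabasal type II keratin also known from sweat gland ducts, ran the other way, with 1.53 CPM in BRAF Bap1 KO replicate 3 and 915 CPM in replicate 4. Its remaining values were 0.483 and 8.89 CPM in BRAF Bap1 KO replicates 1 and 2 and at most 0.663 CPM in any GNA11 library. Krt79, known from the infundibulum of the hair follicle, was at 3.94, 18.8, 144 and 316 CPM in BRAF Bap1 KO, at 1.46, 0.276, 0.108, 0.143 and 0 CPM in GNA11 Bap1 KO, and at 0.262 and 0.0891 CPM in GNA11. The groups did not overlap, and Krt79 fell in GNA11 Bap1 KO against BRAF Bap1 KO (log2 fold change -8.33 ± 1.56 (SE), edgeR adjusted p = 0.00337).

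Krt80, a type II keratin found in many epithelia, was the one member at 9.61 CPM or more in all 11 libraries, including those with few counts of any other keratin. It was at 13.4 and 34.2 CPM in GNA11, at 24.3, 10.1, 11.1, 21.7 and 23.4 CPM in GNA11 Bap1 KO, and at 9.61, 13.7, 81.5 and 370 CPM in BRAF Bap1 KO. BRAF Bap1 KO replicates 1 and 2 lay inside the range of the GNA11 libraries, and replicates 3 and 4 above it. In the GNA11 libraries other than GNA11 Bap1 KO replicate 1 it made up between 50.3% and 88.3% of the keratin CPM, and it led the keratins per kb in both GNA11 libraries (2.09 and 5.35 CPM per kb). Without it the keratins of those 6 libraries summed to between 4.55 and 11 CPM. The log2 fold change between GNA11 Bap1 KO and BRAF Bap1 KO was -2.71 ± 0.92 (SE, edgeR adjusted p = 0.0372), and the call was lost without BRAF Bap1 KO replicate 4 or without any single GNA11 Bap1 KO replicate. Krt78, a keratin of differentiating epidermis, was at 28.6 and 16.1 CPM in BRAF Bap1 KO replicates 3 and 4, and between 0 and 0.868 CPM in the other libraries.

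**Figure D4:**
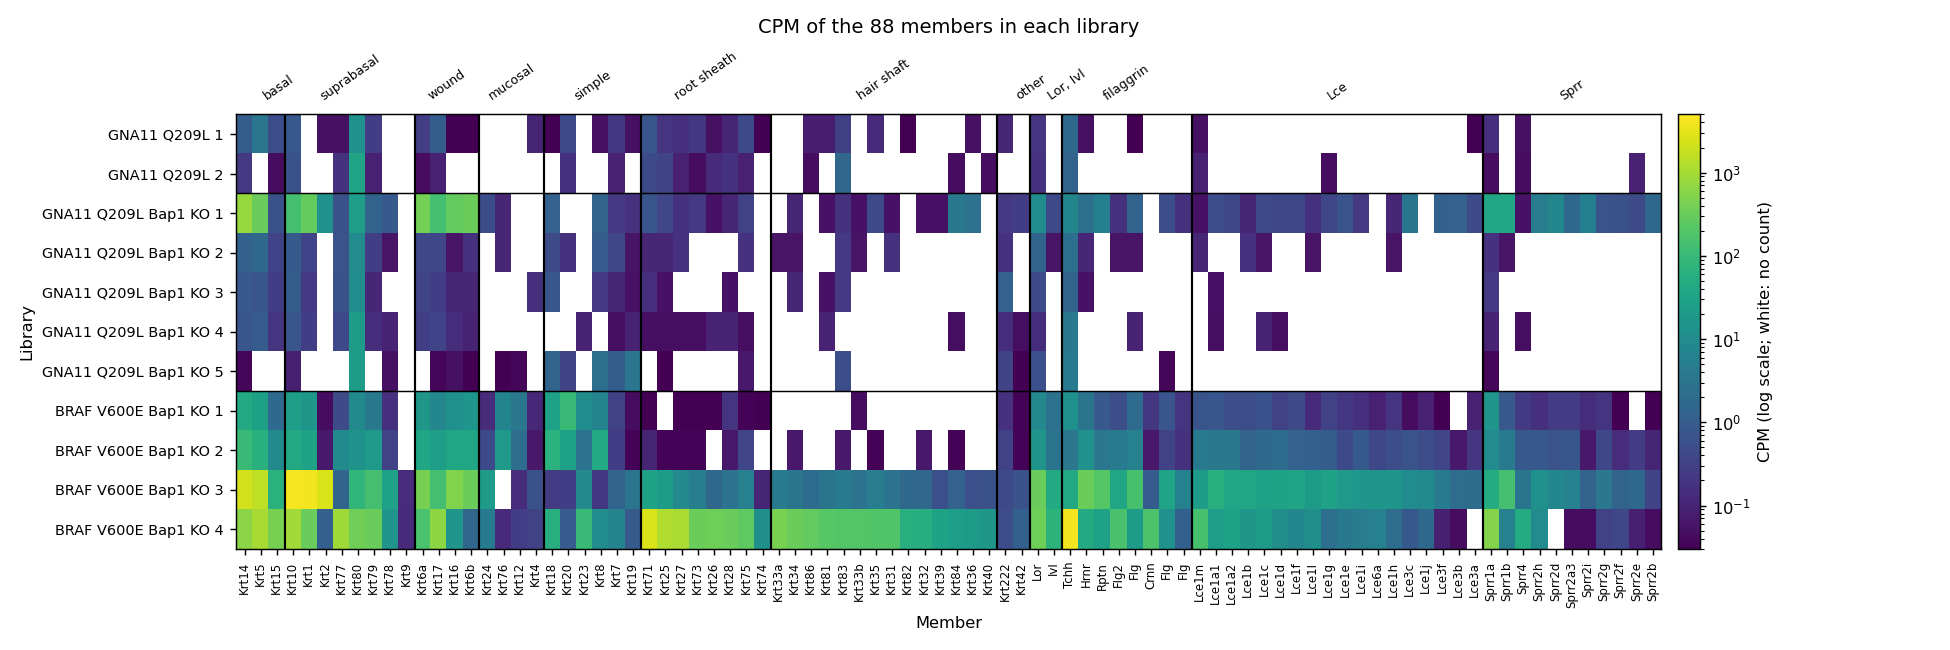
CPM (log colour scale, white for no count) of each of the 88 members (columns, grouped by class, highest mean first) in each library (rows). Krt80 is the only column coloured at 9.61 CPM or more in all 11 libraries, and hair shaft and root sheath columns are brightest in BRAF Bap1 KO replicate 4.

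Wound and appendage keratins, which are induced when epidermis is injured or proliferates and are always made in hair follicles and nails, were as high in GNA11 Bap1 KO replicate 1 as in the keratin-rich BRAF tumours. Krt6a was at 397 CPM there, at 17.7, 37.1, 425 and 163 CPM in BRAF Bap1 KO, and at most 0.387 CPM in the other GNA11 libraries of either Bap1 genotype. Krt6b was at 343 CPM in that library and at 16.4, 34.8, 330 and 1.57 CPM in BRAF Bap1 KO. Krt16, a type I partner of Krt6, was at 272 CPM in the same library and at 12.8, 35.4, 502 and 15.8 CPM in BRAF Bap1 KO. Krt6a and Krt6b share 44.8% of their 50-base stretches with another member, so the division of reads between them is uncertain. Krt17 was highest in BRAF Bap1 KO replicate 4 at 655 CPM, against 7.89, 24.9 and 139 CPM in replicates 1 to 3 and 136 CPM in GNA11 Bap1 KO replicate 1. The wound keratin sum over the basal sum was 1.04 in GNA11 Bap1 KO replicate 1, 0.747 and 0.768 in BRAF Bap1 KO replicates 1 and 2, and 0.362 and 0.396 in replicates 3 and 4. None of the 4 passed the test between genotypes with all libraries. The log2 fold changes against BRAF Bap1 KO lay between -0.48 ± 2.21 (SE) for Krt6b and -2.91 ± 2.05 (SE) for Krt17, edgeR adjusted p = 0.875 and 0.268, and without GNA11 Bap1 KO replicate 1 they were -10.08 and -9.70, edgeR adjusted p = 0.00456 and 0.00438.

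Keratins of the hair follicle were concentrated in BRAF Bap1 KO replicate 4. All 8 inner root sheath and companion keratins and all 14 hair shaft keratins were highest in that library. Krt71, a type II chain of the inner root sheath, was at 2526 CPM in it, at 0.0225, 0.102 and 31.3 CPM in replicates 1 to 3, and between 0 and 0.758 CPM in GNA11 libraries of either Bap1 genotype. Krt25 and Krt27, type I chains of the same sheath, were at 1190 and 1069 CPM in replicate 4 and at 22.1 and 8.7 CPM in replicate 3. Krt73 and Krt28, a type II and a type I chain of the sheath, were at 343 and 322 CPM in replicate 4 and at 5.08 and 2.89 CPM in replicate 3. Krt75, of the companion layer, was at 255 and 5.74 CPM in the same libraries. The difference between replicates 3 and 4 was 80.6-fold for Krt71 and 194-fold for Krt26, while replicates 1 and 2 of the same genotype had at most 0.375 CPM of any keratin of the class. Against BRAF Bap1 KO, Krt71 was called lower in GNA11 Bap1 KO at a log2 fold change of -11.75 ± 2.99 (SE, edgeR adjusted p = 0.012), but BRAF Bap1 KO replicates 1 and 2 lay within the range of GNA11 Bap1 KO. DESeq2 gave no adjusted p for any of the 7 fitted root sheath keratins or the 14 hair shaft keratins, and none passed with limma voom.

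The hair shaft keratins, which form the cortex and cuticle of the hair, summed to 2283 CPM in BRAF Bap1 KO replicate 4, to 0.0449, 0.272 and 34 CPM in replicates 1 to 3, to between 0.143 and 7.38 CPM in GNA11 Bap1 KO and to 0.654 and 1.69 CPM in GNA11. Krt33a and Krt34, type I chains, were at 451 and 340 CPM in replicate 4 and at 4.04 and 3.13 CPM in replicate 3. Krt86 and Krt81, type II chains of the cortex, were at 272 and 221 CPM against 2.05 and 3.06 CPM. Krt33b, Krt35, Krt31, Krt32 and Krt39 were at 203, 195, 193, 53.3 and 31.7 CPM in replicate 4, at between 0.557 and 5.01 CPM in replicate 3, and at most 0.434 CPM in any GNA11 library. Krt81 and Krt86 share 37.1% and 39.8% of their 50-base stretches with another member, and Krt34 shares 33.1%, so their division is uncertain, while the class sum is less exposed. Krt84 and Krt36 stood apart from this pattern in GNA11 Bap1 KO replicate 1, at 3.8 and 2.6 CPM, where Krt33a and Krt86 had no count. They were the 2 hair shaft keratins not called against BRAF Bap1 KO (edgeR adjusted p = 0.271 and 0.25). Krt84 was called lower without replicate 1 (log2 fold change -8.91 ± 2.72 (SE), edgeR adjusted p = 0.031). Krt83 was at 1.56 CPM in GNA11 replicate 2, above its level in any BRAF library but replicates 3 and 4.

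**Figure D5:**
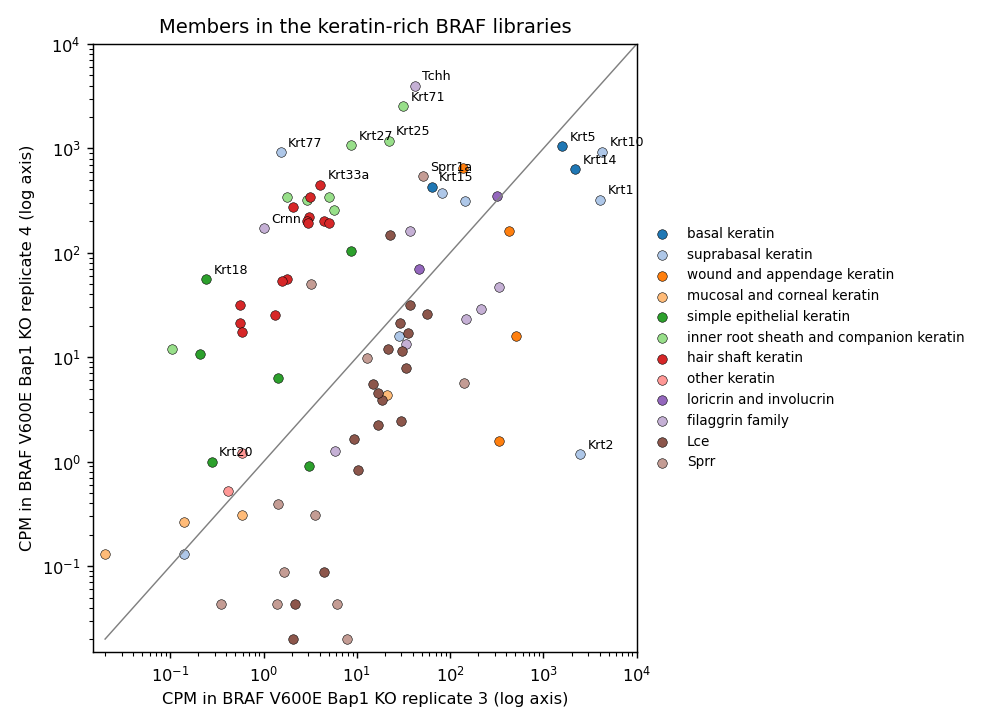
CPM of the 88 members in BRAF Bap1 KO replicate 3 (horizontal, log axis) and replicate 4 (vertical, log axis), coloured by class, with the line of equal CPM and points without a count drawn at 0.02 CPM. Root sheath, hair shaft and most simple keratins and Tchh lie above the line, Krt2, Krt1, Krt10 and most Lce and Sprr genes lie below it, and 44 members are higher in each library.

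Simple epithelial keratins were divided differently. They summed to 148, 142, 13.9 and 179 CPM in BRAF Bap1 KO, so replicate 4 held the highest sum, and to at most 8.45 CPM in any GNA11 library. In BRAF Bap1 KO replicates 1 and 2, where basal and suprabasal keratins were lower than in replicates 3 and 4, Krt20, a type I keratin known from intestine, urothelium and Merkel cells, was at 101 and 28.7 CPM. It was at 0.278 and 1 CPM in replicates 3 and 4, and between 0 and 0.445 CPM in the GNA11 libraries of either Bap1 genotype. Against BRAF Bap1 KO it was called lower in GNA11 Bap1 KO, with a log2 fold change of -8.01 ± 1.77 (SE, edgeR adjusted p = 0.00668), although replicate 3 lay in the range of GNA11 Bap1 KO. Krt18 was at 29.4, 65.1, 0.244 and 56 CPM in BRAF Bap1 KO, at 1.3, 0.497, 0.757, 0 and 1.45 CPM in GNA11 Bap1 KO, and at 0.0262 and 0 CPM in GNA11. Its partner Krt8 was at 6.56, 44.8, 0.209 and 10.7 CPM in BRAF Bap1 KO, at 1.41, 0.995, 0.216, 0 and 2.28 CPM in GNA11 Bap1 KO, and at 0.0523 and 0 CPM in GNA11. Replicate 3, with the most epidermal keratin, was the BRAF tumour with the least of this pair and lay among the GNA11 Bap1 KO libraries. Relative to basal keratins, the simple sum was 2.02 and 0.824 in BRAF Bap1 KO replicates 1 and 2, 0.0036 in replicate 3 and 0.0846 in replicate 4.

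Krt23, a type I keratin, was at 10.7, 2.86, 8.63 and 104 CPM in BRAF Bap1 KO, with a single GNA11 library above 0, GNA11 Bap1 KO replicate 4 at 0.0952 CPM. The groups did not overlap, and it had the smallest adjusted p of any member against BRAF Bap1 KO (log2 fold change -10.61 ± 1.57 (SE), edgeR adjusted p = 0.0015 for GNA11 Bap1 KO). Against GNA11, with no count in either library, it was at least 637-fold higher in BRAF Bap1 KO, taking 3 counts over the group as the floor. Krt7 and Krt19, found in ducts and other simple epithelia, did not follow. Krt19 was at 0.0449 and 0.0341 CPM in BRAF Bap1 KO replicates 1 and 2, and its highest value in the series was 3.35 CPM in GNA11 Bap1 KO replicate 5. Krt7 was at 0.314, 0.272, 1.43 and 6.38 CPM in BRAF Bap1 KO and at 1.02 CPM in GNA11 Bap1 KO replicate 5. That replicate also held the most Krt8 and Krt18 of its genotype, simple keratins were 50.6% of its keratin level per kb, and it had at most 0.0864 CPM of Krt14, Krt5, Krt1 and Krt10. The GNA11 libraries were thus not alike in the little keratin they had.

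Among mucosal and corneal keratins, Krt76, known from the palate, and Krt12, the type I keratin of the corneal epithelium, were highest in BRAF Bap1 KO replicates 1 and 2. Krt76 was at 6.7, 18.9, 0 and 0.131 CPM in BRAF Bap1 KO and at most 0.111 CPM in any GNA11 library. Krt12 was at 3.6, 2.21, 0.139 and 0.262 CPM in BRAF Bap1 KO and had 1 GNA11 library above 0, at 0.0346 CPM. Both were called lower in GNA11 Bap1 KO (Krt12 log2 fold change -6.61 ± 1.28 (SE), edgeR adjusted p = 0.00446, and Krt76 -7.11 ± 1.90 (SE), edgeR adjusted p = 0.0159). Krt12, Krt76 and Krt20 were the 3 members higher in both BRAF Bap1 KO replicates 1 and 2 than in replicates 3 and 4. Krt24, a type I keratin of differentiating keratinocytes, had the opposite order, with 0.135, 0.443, 20.9 and 4.33 CPM, and was also called lower (edgeR adjusted p = 0.031). Krt222 and Krt42, placed in no epithelial class, stayed at or below 1.3 CPM in every library. Krt222 was highest in GNA11 Bap1 KO replicate 3, at 1.3 CPM.

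Type I and type II keratins are made in balance in a filament, and their summed levels were compared per kb of exon. Over the 27 type I and 22 type II keratins the type I to type II ratio was 1.44 in GNA11 Bap1 KO replicate 1 and 3.31, 1.75, 1.25 and 1.41 in BRAF Bap1 KO. The highest of these belonged to BRAF Bap1 KO replicate 1, in which Krt20 was the leading type I chain at 52.4 CPM per kb and the level of Krt18 was 6.1 times that of Krt8. For Krt14 over Krt5 the ratio was 3.13 in GNA11 Bap1 KO replicate 1 and 1.96, 2.06, 1.72 and 0.746 in BRAF Bap1 KO. For Krt10 over Krt1 it was 0.991 in GNA11 Bap1 KO replicate 1 and 3.05, 3.02, 2.18 and 6.05 in BRAF Bap1 KO. In the 6 other GNA11 libraries the ratio over all keratins was between 0.154 and 0.835, and Krt80 was the highest type II chain in each.

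Loricrin and involucrin, an abundant late and an early protein of the envelope, were higher in the BRAF tumours. Lor was at 8.56, 16, 319 and 352 CPM in BRAF Bap1 KO, at 10.2, 1.44, 0.487, 0.143 and 0.553 CPM in GNA11 Bap1 KO, and at 0.183 and 0.178 CPM in GNA11. Ivl was at 2.8, 3, 46.6 and 70 CPM in BRAF Bap1 KO, at 0.434 and 0.0553 CPM in GNA11 Bap1 KO replicates 1 and 2, and had no count in the other 3 or in GNA11. Lor in GNA11 Bap1 KO replicate 1 lay between the lower pair of BRAF libraries, whereas the Ivl groups did not overlap. Both were called lower in GNA11 Bap1 KO (Lor log2 fold change -6.10 ± 1.47 (SE), edgeR adjusted p = 0.00983, and Ivl -8.42 ± 1.64 (SE), edgeR adjusted p = 0.00455), and both were called in GNA11 against BRAF Bap1 KO (edgeR adjusted p = 0.0376 and 0.0326).

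The filaggrin family, large granule proteins that bundle keratin and are encoded beside the other envelope genes, split between BRAF Bap1 KO replicates 3 and 4. Hrnr was at 3.08, 13.2, 332 and 47.5 CPM in BRAF Bap1 KO, and at most 2.55 CPM in any GNA11 library. Rptn was at 0.865, 3.61, 213 and 28.8 CPM, and at 5.32 CPM in GNA11 Bap1 KO replicate 1. The main Flg row was at 1.98, 5.52, 148 and 23.1 CPM and the 2 other Flg rows were lower, and the counts of such repetitive genes are uncertain. These 5 rows were highest in replicate 3. Tchh, the trichohyalin of inner root sheath and medulla, was at 12.7, 3.58, 42 and 3999 CPM in BRAF Bap1 KO, at 7.65, 2.32, 1.35, 3.9 and 4.3 CPM in GNA11 Bap1 KO, and at 1.86 and 1.38 CPM in GNA11, and it had counts in all 11 libraries. Crnn, the cornulin of squamous mucosa, was at 0.213, 0.0681, 1.01 and 173 CPM and had no count in any GNA11 library. Flg2 was at 0.539, 4.19, 37 and 161 CPM. Tchh, Crnn and Flg2 were the 3 highest in replicate 4. All but Rptn were called lower in GNA11 Bap1 KO than in BRAF Bap1 KO, where Rptn had a log2 fold change of -5.89 ± 2.21 (SE, edgeR adjusted p = 0.056).

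The Lce genes, whose products are laid down late in the envelope, summed to 5.24, 24.7, 393 and 298 CPM in BRAF Bap1 KO, to 9.98, 0.442, 0.0541, 0.19 and 0 CPM in GNA11 Bap1 KO, and to 0.0785 and 0.134 CPM in GNA11. Of 18 genes, 17 were highest in BRAF Bap1 KO replicate 3, and Lce1m, at 0.696, 4.05, 22.8 and 149 CPM, was highest in replicate 4. Lce1m was called lower in GNA11 Bap1 KO at a log2 fold change of -10.56 ± 1.77 (SE, edgeR adjusted p = 0.00208). Lce1a1 was at 0.741, 3.71, 57.1 and 25.8 CPM in BRAF Bap1 KO and at most 0.543 CPM in any GNA11 library, without overlap. Lce1a2 and Lce1b were at 37.5 and 34.9 CPM in BRAF Bap1 KO replicate 3 and at 31.9 and 17.1 CPM in replicate 4, and had no count in GNA11. Lce1c, Lce1d, Lce1l and Lce1h were at 29.3, 30.8, 21.5 and 16.8 CPM in replicate 3, and at most 0.434 CPM in any GNA11 library. The Lce3 genes, known to be induced when the barrier is disrupted, had another distribution. Lce3c was at 3.15 CPM in GNA11 Bap1 KO replicate 1, without a count in any other GNA11 library, and at 0.0449, 0.647, 10.4 and 0.83 CPM in BRAF Bap1 KO. The summed CPM of the 4 Lce3 genes over that of the 13 Lce1 genes was 1.63 in GNA11 Bap1 KO replicate 1 and 0.0291, 0.0564, 0.0534 and 0.0033 in BRAF Bap1 KO. None of the Lce3 genes was called with all libraries (edgeR adjusted p between 0.207 and 0.642), whereas the 13 Lce1 genes and Lce6a were. Lce3c shares 34.2% of its 50-base stretches with another member and Lce3f 40.2%, so their division is uncertain.

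The Sprr genes, crosslinking proteins of the envelope that are also induced in stressed epithelia, were high, as the wound keratins were, in GNA11 Bap1 KO replicate 1. They summed to 99.6 CPM in GNA11 Bap1 KO replicate 1, to 18.2, 18.1, 232 and 605 CPM in BRAF Bap1 KO, and to 0.221 CPM or less in the other GNA11 libraries. Sprr1b was at 40.2 CPM in GNA11 Bap1 KO replicate 1 and at 0.853, 4.05, 142 and 5.64 CPM in BRAF Bap1 KO. Sprr1a was at 36.8 CPM in that library and at 16, 10.1, 51.4 and 539 CPM in BRAF Bap1 KO, so it alone made up most of the sum in replicate 4. Sprr2i and Sprr2b were the 2 Sprr genes highest in GNA11 Bap1 KO replicate 1, at 5.48 and 1.74 CPM, against at most 1.39 and 0.348 CPM in any BRAF library. All 8 Sprr2 genes were without a count in the other 4 GNA11 Bap1 KO libraries. The Sprr promoters printed above are those of a gene highest in BRAF Bap1 KO replicate 4 (Sprr1a) and of Sprr2d and Sprr2h. Sprr2d was at 7.32 CPM in GNA11 Bap1 KO replicate 1 and at 0.247, 0.647, 7.93 and 0 CPM in BRAF Bap1 KO. Sprr2h was at 4.67 CPM in that GNA11 Bap1 KO library and at 0.157, 0.817, 12.8 and 9.79 CPM in BRAF Bap1 KO. Sprr4 was the exception and the single Sprr gene called: it was at 0.236, 0.817, 3.2 and 49.9 CPM in BRAF Bap1 KO and at most 0.0543 CPM in any GNA11 library (log2 fold change of GNA11 Bap1 KO over BRAF Bap1 KO -9.35 ± 1.82 (SE), edgeR adjusted p = 0.00395). Without GNA11 Bap1 KO replicate 1, 7 of the 11 were called, against 35.8% of all genes in either direction.

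Genes outside the set that work in the same cells were counted against the same background, 24.7% of all genes called lower in GNA11 Bap1 KO than in BRAF Bap1 KO and 41.2% called in either direction. Of 12 genes of desmosomes and stratified adhesion, 6 were called lower and 0 higher. All 9 epidermal transcription factors were called lower, as were 13 of 19 cornification enzymes and secreted late genes, 9 of 12 general epithelial genes and 11 of 12 tested hair follicle genes. The hair follicle list summed to 7.52, 13.1, 40.8 and 2018 CPM in BRAF Bap1 KO, so its sum rested on replicate 4. Calls of the companion lists were not recounted with a library left out. Ppl, the periplakin that links desmosomes to the envelope, had the smallest p of the desmosome list, with 26.6, 18.7, 143 and 309 CPM in BRAF Bap1 KO and at most 8.14 CPM in any GNA11 library (edgeR adjusted p = 0.00729). Jup, the plakoglobin of several kinds of junction, was called as well (edgeR adjusted p = 0.0481), but BRAF Bap1 KO replicates 1 and 2, at 39.6 and 37.7 CPM, lay inside its range of 33.3 to 78.9 CPM in the GNA11 libraries. Klf4, a barrier transcription factor, was at 181, 73.7, 195 and 161 CPM in BRAF Bap1 KO, between 4.59 and 25.5 CPM in GNA11 Bap1 KO, and at 17.6 and 87.8 CPM in GNA11 (edgeR adjusted p = 0.00293 for GNA11 Bap1 KO against BRAF Bap1 KO). Asprv1, a protease that processes filaggrin, was at 6.4, 34.5, 422 and 301 CPM in BRAF Bap1 KO and at most 8.36 CPM in any GNA11 library (edgeR adjusted p = 0.00375). Kprp, a keratinocyte proline-rich protein, was at 1.48, 2.69, 58 and 98.7 CPM in BRAF Bap1 KO and at 1.41 CPM in GNA11 Bap1 KO replicate 1 (edgeR adjusted p = 0.00975). Trp63, the master regulator of stratified epithelium, was at 2.67, 9.98, 75.1 and 136 CPM in BRAF Bap1 KO, at 6.4 CPM in GNA11 Bap1 KO replicate 1 and at 0.221 CPM or below in the other GNA11 libraries. Dsp, the desmoplakin of desmosomes, was at 33.8, 51.9, 946 and 1399 CPM in BRAF Bap1 KO and at 95.8 CPM in GNA11 Bap1 KO replicate 1, with at most 1.11 CPM in the others. Krtap8-1, a protein of the hair shaft matrix, was at 842 CPM in BRAF Bap1 KO replicate 4 and 4.87 CPM in replicate 3. Itgb4, a hemidesmosome integrin, had another order, with 523, 83.4, 158 and 80.9 CPM in BRAF Bap1 KO and 17 CPM or below in the GNA11 libraries, so it was highest in replicate 1, where basal keratins were the lowest of the 4. Its log2 fold change for GNA11 Bap1 KO over BRAF Bap1 KO was -4.37 ± 0.63 (SE, edgeR adjusted p = 0.00103). Cdh1, the epithelial cadherin that melanocytes also make, did not pass the test (log2 fold change -1.74 ± 1.06 (SE), edgeR adjusted p = 0.203).

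As the hair follicle keratins were, markers of some other tissues were highest in BRAF Bap1 KO replicate 4. Its 12 matched salivary gland genes summed to 188214 CPM, against 8.79 to 62.2 CPM in the other BRAF libraries, with Bpifa2 at 97935 CPM and Amy1 at 34881 CPM, and 0 of the 12 at 0. In the other BRAF libraries 7 to 9 of the 12 were at 0, Bpifa2 among them. The GNA11 libraries summed to between 80.9 and 6068 CPM of the list, almost all from Car6, without which they had between 0.708 and 47 CPM. Its 8 skeletal muscle genes summed to 5742 CPM, against 12.8 to 219 CPM in the other BRAF libraries. The 9 sebaceous gland genes summed to 1407 CPM there, and to between 328 and 544 CPM in the other BRAF libraries. In the GNA11 libraries of either Bap1 genotype, where hair follicle keratins were low, they summed to between 485 and 844 CPM. The highest of the list by mean CPM were Scd1, Soat1 and Far2, and the sum does not stand for all 9. Of the 9, 5 were called lower and 0 higher in GNA11 Bap1 KO than in BRAF Bap1 KO, against 24.7% of all genes lower. In each GNA11 library 1 to 3 of them were at 0, against 0 of them in each BRAF library. Salivary ducts and glands also make simple and basal keratins, and the part of these tissues in the keratin values of replicate 4 was not tested. The 7 matched genes of the mesothelium list, which holds Krt8, Krt18 and Krt19 themselves, did not move as 1 group. Msln was at 4.59, 25.5, 0.209 and 2.67 CPM in BRAF Bap1 KO and at most 0.328 CPM in any GNA11 library. Upk1b had another order, with 0.247, 1.02, 4.77 and 2.49 CPM in BRAF Bap1 KO and 7.73 CPM in GNA11 Bap1 KO replicate 3. Wt1 and Upk3b did not pass the expression filter, and Wt1 was at 0.393, 0.477, 0.0348 and 0.0874 CPM in BRAF Bap1 KO. The part of such cells in the simple keratin values was not tested. Fibroblast genes were called lower in GNA11 Bap1 KO than in BRAF Bap1 KO for 8 of 9, against 24.7% of all genes, with sums of 452 to 2343 CPM against 3239 to 18467 CPM. The sum was highest in the keratin-rich BRAF Bap1 KO replicates 3 and 4, although Pdgfra ran the other way, with 1181, 763, 145 and 101 CPM in BRAF Bap1 KO. GNA11 replicate 1 reached 11491 CPM of the same fibroblast list with 4.94 CPM of basal keratin.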

How the data were processed

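RNA of 11 skin tumours of 3 genotypes was measured by RNA-seq. The authors deposited 1 table of estimated counts per gene, with whole-number values and no normalisation in the deposited file. Per the submitters' processing notes, reads were aligned with STAR to mm9; the sources used here do not give the counting program, annotation, strand setting or rule for multi-mapped reads, so reads of antisense or overlapping genes may be mixed. From 18769 lines, 7 repeats and 6 transgene lines were left out.

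Counts were fitted with edgeR 4.0.16 (R 4.3.3): TMM scaling, expression filter by group, quasi-likelihood test, all 11 libraries, genotype as the only term (prior degrees of freedom 2.82, common dispersion 0.419). P-values are two-sided, adjusted by Benjamini-Hochberg over 17350 genes, threshold 0.05. Each standard error was the absolute fold change over the square root of its F. Alternatives were DESeq2 1.42.0, limma voom (limma 3.58.1), other scaling, no filter, 2 genotypes alone, summed libraries and leaving out libraries; leaving out the BRAF libraries given NA for Bap1 was chosen after seeing the data. The script was tested on simulated counts. Shared 50-base stretches were read from GENCODE vM21 transcripts.

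Members, classes and companion lists (135 of 139 entries matched) were chosen with earlier results of these data known. The text names the 4 members of each class with the highest mean CPM and up to 8 past the threshold, some of the companion genes that are among the 4 past the threshold with the smallest p or the 3 highest of their list (the others are counted only), and genes chosen after their values were seen where their pattern differed (among them Krt12, Krt42, Krt222, Lce3c, Sprr2b, Sprr2d, Sprr2i, Sprr4, Sox10, Upk1b and Wt1).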

Additional observations from a re-analysis of the deposited data

Results flagged for a closer look

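Summed CPM of 12 classes and 13 companion lists was checked for a library far from the rest of its group in the genotypes with 4 or 5 libraries, by Dixon's criterion. Chance meets it in about 1 group in 20 for independent groups of normally distributed values. These sums were not log-transformed and come from the same libraries, so that rate may not hold here. Of 50 such groups 20 met the criterion, and 12 of them were GNA11 Q209L Bap1 KO replicate 1.

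That library stood above the 4 others of its genotype for basal keratins (1100 CPM against 0.0346 to 3.26), suprabasal keratins (465 against 12.3 to 23.5), wound and appendage keratins (1148 against 0.104 to 0.995), mucosal and corneal keratins (0.651 against 0 to 0.162), inner root sheath and companion keratins (1.95 against 0.0864 to 0.553) and hair shaft keratins (7.38 against 0.143 to 0.553). It also stood above them for loricrin and involucrin (10.6 CPM against 0.143 to 1.49), the filaggrin family (17.7 against 1.41 to 4.34), Lce (9.98 against 0 to 0.442) and Sprr (99.6 against 0.0346 to 0.221). The same held for desmosome genes (422 CPM against 71.8 to 110) and cornification genes (157 against 6.18 to 12.6). Replicate 2, which shares its identifier in the labels, had 3.26 CPM of basal keratin. The GNA11 Q209L libraries, outside this check, had 1.91 and 1.34 CPM of inner root sheath and companion keratins. The 1.95 CPM of that class was thus not peculiar to GNA11 Q209L Bap1 KO replicate 1.

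BRAF V600E Bap1 KO replicate 4 stood above the other 3 for inner root sheath and companion keratins (6062 CPM against 0.292 to 77.7), hair shaft keratins (2283 against 0.0449 to 34), hair follicle genes (2018 against 7.52 to 40.8), salivary gland genes (188214 against 8.79 to 62.2) and skeletal muscle genes (5742 against 12.8 to 219). In GNA11 Q209L Bap1 KO, replicate 3 stood apart for Krt222 and Krt42 together (1.3 CPM against 0.166 to 0.488) and for skeletal muscle genes (89.4 against 2.37 to 7.18), and replicate 2 for mammary and sweat gland genes (2.71 against 1.62 to 1.74).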

How the results depend on the processing

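No sign turned where a refit was possible: of 1183 refitted values of the 73 single calls, 917 stayed past the threshold, 266 did not, and 0 turned. Fits in which a member failed the expression filter or had no adjusted p are not among the 1183. A member with few or no counts in 1 genotype could hardly turn. Members called in GNA11 Q209L Bap1 KO against BRAF V600E Bap1 KO were 55 with all libraries. DESeq2 called 34, with 31 of them among the 55, and gave no adjusted p for 22 of the 55. Limma voom called 20, with 11 of them among the 55. The calls were 22 with the 2 genotypes alone and 34 to 64 leaving out 1 library. Without the BRAF libraries given NA for Bap1, 19 members were called, and all genes called fell from 7146 to 3571. For GNA11 Q209L against BRAF V600E Bap1 KO (18 members) they were 45 with DESeq2, 0 with limma voom (7 at an unadjusted p under 0.05), 0 with the 2 genotypes alone (47 unadjusted), 0 to 26 leaving out 1 library and 2 without the NA libraries, and all genes called (2637) were 5425, 2599, 417, 265 to 2867 and 838 in the same order. For Bap1 loss in GNA11 Q209L (0 members), DESeq2 called 5, and all genes called (5) were 3 with DESeq2's size factors in edgeR, 3 with no filter, 442 with DESeq2, 64 with the 2 genotypes alone, 0 with the libraries of a shared identifier summed (1742 unadjusted) and 0 to 13 leaving out 1 library. The unadjusted counts for GNA11 Q209L against BRAF V600E Bap1 KO stand beside 5733 of 17350 genes with limma voom. With the 2 genotypes alone the background was 4929 of 17015 genes. With a GNA11 Q209L replicate left out, the lone library is assumed to vary like the other genotypes. Loricrin and involucrin in GNA11 Q209L summed to 0.161 CPM with unscaled totals and 0.186 CPM with libraries summed, against 0.181 CPM. The cause of these differences was not tested. No paired analysis was possible because replicate numbers follow deposition order and pair no libraries. Depth limits members at or below 0.166 CPM, which cannot be told from 0 in the shallowest libraries.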
